A study of Mus musculus with 12 samples.

Results

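The 9 genes described here, of 43346 in the deposited table, belong to the CXC chemokine system and were followed across 12 RNA-seq libraries of mouse vein. They are the ligand Cxcl12 with its receptors Cxcr4 and Ackr3, the neutrophil-attracting ligands Cxcl1, Cxcl2 and Cxcl5, the B-cell attractant Cxcl13, and the ligands Cxcl14 and Cxcl16. The genes were chosen by name, and were chosen from a table whose difference between fistula and sham veins was already known for some of them. Every value of that difference is therefore given below as a description. Calls of the fits on that difference are counted further below, and nothing is read from them for these genes. The sham group (n = 6) was jugular vein taken 7 days after sham surgery. The AVF-CKD group (n = 6) was the venous limb of the AVF taken 7 days after AVF-CKD surgery, letters read here as arteriovenous fistula, a surgical join of an artery to a vein, and chronic kidney disease. Strain, age, how kidney disease was produced and whether sham animals had it are not given in the labels, so surgery, vessel and kidney disease cannot be told apart. Whether every library is a separate mouse is not stated in the labels, so p-values measure only the spread between these libraries, which may be technical.

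Chemokines are small secreted proteins that bind G protein-coupled receptors and steer leukocytes. CXC ligands that carry the motif Glu-Leu-Arg before their first cysteines, among them Cxcl1, Cxcl2 and Cxcl5, act on Cxcr2 and draw neutrophils. Cxcl12, made by stromal and perivascular cells, signals through Cxcr4, and Ackr3 is an atypical receptor that takes up Cxcl12 without G protein signalling. In vessels this axis is known for drawing leukocytes and progenitor cells to an injured wall.

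Libraries held 38.65 M to 60.14 M counts (M for mega). All 9 genes passed the low-count filter in the table of 18965 tested genes, and their counts per library ran from 52 for Cxcl13 to 28262 for Cxcl12. Endothelial markers (7 of 7 in the table, summed over the list) stood at 1042 to 1454 CPM in the sham vein and 868 to 1408 CPM in AVF-CKD, and smooth muscle markers (6 of 6) at 1339.7 to 2174 and 989 to 1777 CPM, so the markers of a vein wall were present in both groups. CPM is the count of a gene per M counts of the TMM-scaled library size. Neighbouring tissue varied between libraries, with summed skeletal muscle markers from 305 to 9339.8 CPM in the sham vein and 627 to 8643 CPM in AVF-CKD. Adipocyte markers (5 of 5 in the table) had negative log2 differences between fistula and sham vein in 5 of 5 cases, with a median of -1.18. Their sum ran from 154 to 863 CPM in sham (median 272 CPM, highest in sham 6) and from 125 to 302 CPM in AVF-CKD (median 165 CPM). The edgeR test called none of them, as it called 0% of all tested genes. DESeq2, which called 0.407% of genes, called Adipoq, the adiponectin gene (adjusted p = 0.0473). The 7 endothelial markers were likewise negative in 7 of 7 cases (median -0.19), with none called by edgeR. The part of these cells in the values of the 9 genes was not tested. Summed gland and epithelium markers reached 43.7 CPM in sham 6, the library with the highest adipocyte sum, against at most 11.2 CPM in AVF-CKD. In whole tissue, fewer cells of a type and less RNA per cell cannot be told apart.

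Cxcl1 and Cxcl2 lie beside each other on chromosome 5 (GRCm38, 90891241 to 90893115 and 90903899 to 90905909, both on the plus strand), and Cxcl12 on chromosome 6 (117168535 to 117181367). The 150 bases before the RefSeq start sites (GRCm38.p6, plus strand, 5′ to 3′) are shown because those of Cxcl1 and Cxcl2 hold the same letters of a site like that of the inflammatory factor NF-kB, and Cxcl12 is the ligand with the highest count. Capitals mark matches to GGANNTTCC on either strand.
Cxcl1, chr5:90891095-90891244: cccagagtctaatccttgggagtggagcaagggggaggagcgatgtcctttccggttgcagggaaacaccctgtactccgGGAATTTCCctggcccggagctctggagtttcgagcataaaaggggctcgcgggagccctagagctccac
Cxcl2, chr5:90903749-90903898: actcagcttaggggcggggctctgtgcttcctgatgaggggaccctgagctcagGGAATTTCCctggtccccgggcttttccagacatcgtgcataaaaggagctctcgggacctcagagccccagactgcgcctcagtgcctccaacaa
Cxcl12, chr6:117168385-117168534: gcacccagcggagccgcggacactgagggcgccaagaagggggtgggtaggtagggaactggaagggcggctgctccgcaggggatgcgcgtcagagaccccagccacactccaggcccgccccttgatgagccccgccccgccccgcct
The match read GGAATTTCC in both, 70 bases before the start site in Cxcl1 and 96 bases before it in Cxcl2. Of 32851 RefSeq promoters of that length 2.35% held a match, and of the 7 genes matched in the promoter table these were the only ones with a match. Cxcl5 and Cxcl16 had no entry there and were not searched. The Cxcl12 window had none and was 72.7% G and C, against a median of 54% over all promoters. A match is a run of letters, and binding was not measured.

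Per length, Ackr3 and Cxcl16 were the most abundant of the 9 genes and Cxcl13 the least. Over all 12 libraries the deposited RPKM (reads scaled by gene length and library total) averaged 46.6 ± 7.88 (SD, n = 12) for Ackr3 and 44.4 ± 9.68 for Cxcl16. Below these came Cxcl12 at 33.8 ± 13.2 RPKM, Cxcl2 at 29.3 ± 17.6, Cxcl5 at 27.8 ± 14.98, Cxcr4 at 27.8 ± 6.36, Cxcl1 at 20.4 ± 10.3 and Cxcl14 at 17.4 ± 7.05 RPKM. Down to Cxcl14 no neighbours in this order differed by more than the larger of their SDs. Cxcl13 stood at 4.49 ± 3.47 RPKM and was below Cxcl14 in 12 of 12 libraries. The gene lengths are those of the table, 953 bases for Cxcl1 and 8176 bases for Cxcl12.

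**Figure D1:**
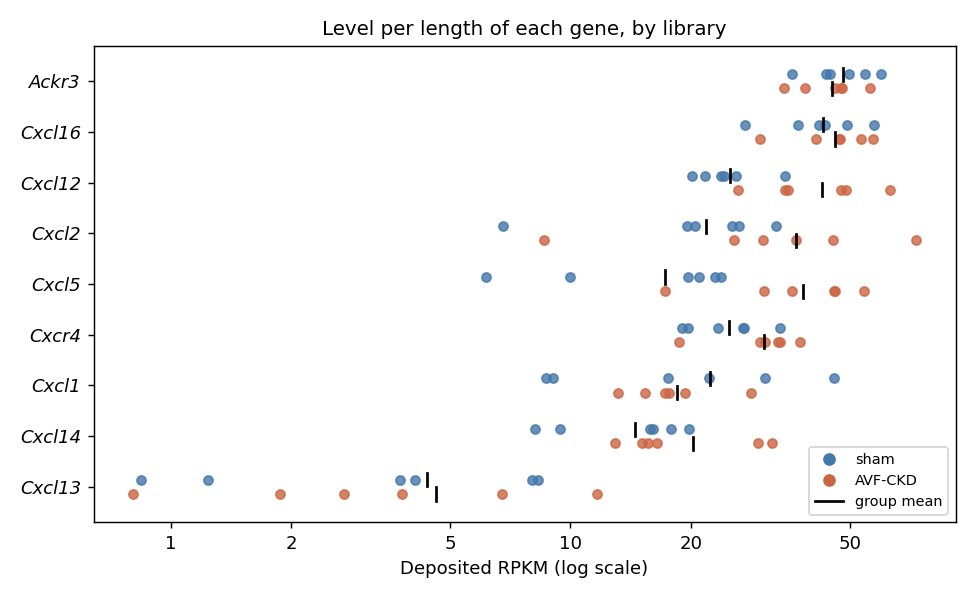
Deposited RPKM on a log axis for each gene, with 1 point per library, blue for sham and orange for AVF-CKD, and a black tick for each group mean. Genes are ordered by their mean over 12 libraries, from Ackr3 (46.6 RPKM) at the top to Cxcl13 (4.49 RPKM), the only gene set apart from its neighbour by more than the larger SD.

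The ligands Cxcl12 and Cxcl5 had the clearest differences in level, with means 1.71 and 2.21 times as high in the fistula vein, while the Cxcl12 receptors differed little. Cxcl12 in sham ran from 198 to 320.0 CPM with a median of 229.5 CPM. In AVF-CKD it ran from 254 to 604 CPM with a median of 393 CPM. The groups overlapped through sham 5 (320.0 CPM), which lay above AVF-CKD 6 (254 CPM) and AVF-CKD 1 (317 CPM), and 6 of 6 fistula libraries were above the sham median. Means were 238 CPM ± 44.3 (SD, n = 6) and 407 CPM ± 129 (SD, n = 6), a log2 fold change of 0.77 ± 0.20 (SE, edgeR fit). Without sham 5 the groups did not overlap. In that setting 268 of 18965 tested genes had no overlap, against 121 with all libraries. The spread within AVF-CKD was wide: AVF-CKD 4 and 5 held 604 and 482 CPM, and AVF-CKD 3 and 1 held 335 and 317 CPM.

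Stromal markers followed that spread in some fistula libraries and not in others. Summed fibroblast markers (7 of 7 in the table, none at 0) were 5481 to 9064 CPM in the sham vein and 4913 to 9188 CPM in AVF-CKD. The median of this sum was lower in AVF-CKD (5282 CPM) than in sham (6885 CPM), while the Cxcl12 median was higher in AVF-CKD. The highest of the fistula libraries on this sum were AVF-CKD 5 (9188 CPM) and AVF-CKD 4 (6513 CPM), those with the most Cxcl12. AVF-CKD 2, the third in Cxcl12 (451 CPM), had the second lowest fibroblast sum of its group (4963 CPM), and AVF-CKD 6, the lowest in Cxcl12 (254 CPM), the third highest (5415 CPM). In sham the library with the most Cxcl12, sham 5, had the lowest fibroblast sum (5481 CPM). Summed pericyte markers (5 of 5, none at 0) were 326 to 755 CPM in the sham vein (median 615 CPM) and 313 to 754 CPM in AVF-CKD (median 447 CPM). Again AVF-CKD 5 (754 CPM) and 4 (623 CPM) were highest among the fistula libraries, AVF-CKD 6 was next (484 CPM) and AVF-CKD 2 the second lowest (337 CPM). Summed lymphatic endothelial markers (5 of 5, none at 0) were 46.0 to 148 CPM in sham (median 98.5 CPM) and 36.1 to 217 CPM in AVF-CKD (median 87.5 CPM). They too were highest in AVF-CKD 5 (217 CPM) and 4 (175 CPM), with AVF-CKD 6 next (116 CPM) and AVF-CKD 2 lowest. The part of these cells in the Cxcl12 values was not tested.

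Cxcr4, the signalling receptor of Cxcl12 (chromosome 1, 128588199 to 128592293), ran from 40.3 to 71.1 CPM in sham (median 52.2 CPM) and from 40.8 to 79.1 CPM in AVF-CKD (median 66.5 CPM). The groups overlapped over most of their range, and 5 of 6 fistula libraries lay above the sham median, AVF-CKD 5 being the exception at 40.8 CPM. The log2 fold change was 0.29 ± 0.16 (SE). Ackr3, the scavenging receptor (chromosome 1, 90203980 to 90216751), ran from 137 to 240.0 CPM in sham (median 185 CPM) and from 136 to 219 CPM in AVF-CKD (median 179 CPM). Its log2 fold change of -0.09 ± 0.14 (SE) was the only negative one of the 3 genes of the axis, and 2 of 6 fistula libraries were above the sham median. With a score of clock genes as covariate it was -0.23 ± 0.10 (SE), without sham 6 it was -0.17, and without sham 2 it was -0.011.

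**Figure D2:**
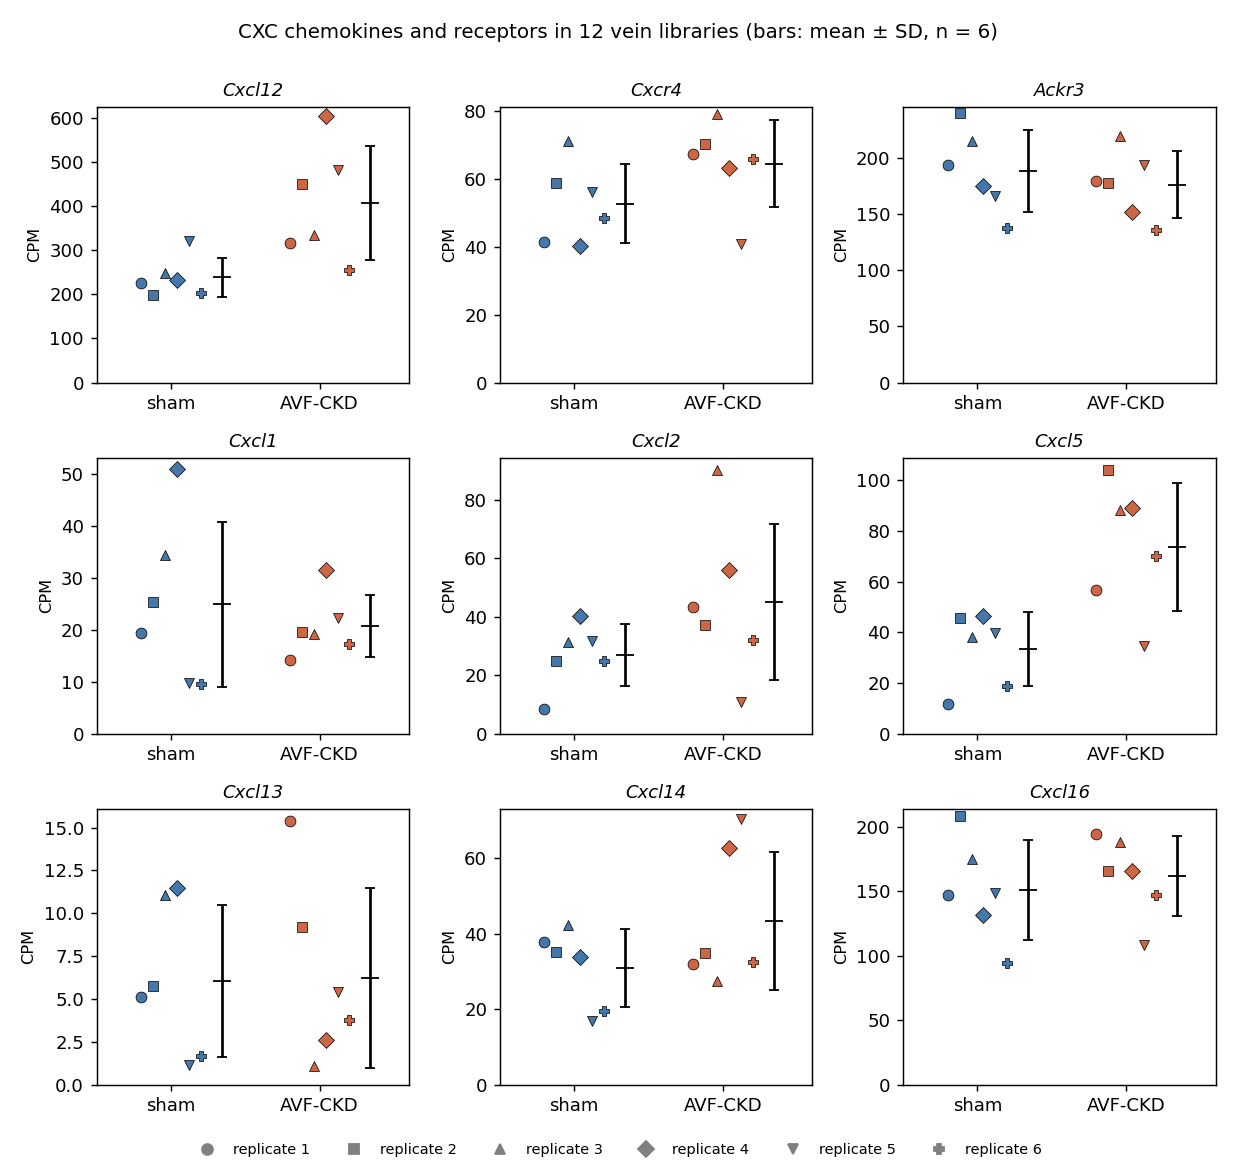
CPM of the 9 genes in each library, blue for sham and orange for AVF-CKD, with a marker shape for each title number and a bar for the mean ± SD (n = 6). Fistula libraries sit at 254 to 604 CPM for Cxcl12 and 34.5 to 104 CPM for Cxcl5, mostly above sham, whereas the groups share their range for Ackr3, Cxcl13 and Cxcl16.

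Among the neutrophil attractants, Cxcl5 and Cxcl2 had higher means in the fistula vein and Cxcl1 a lower one. Cxcl5, a ligand made largely by stromal and epithelial cells (chromosome 5, 90759299 to 90761625), ran from 11.9 to 46.4 CPM in sham (median 38.9 CPM) and from 34.5 to 104 CPM in AVF-CKD (median 79.2 CPM). The fistula libraries other than AVF-CKD 5 (34.5 CPM), 5 of 6, were above the highest sham library, and without AVF-CKD 5 the groups did not overlap. In that setting 253 of 18965 tested genes had no overlap, against 121 with all libraries. Means were 33.4 CPM ± 14.5 (SD, n = 6) and 73.8 CPM ± 25.3 (SD, n = 6), a log2 fold change of 1.14 ± 0.34 (SE).

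Cxcl2, a fast-induced ligand of macrophages and neutrophils, ran from 8.34 to 40.4 CPM in sham (median 28.2 CPM) and from 10.9 to 90.3 CPM in AVF-CKD (median 40.3 CPM). The groups overlapped, since AVF-CKD 2, 5 and 6 (37.1, 10.9 and 32.0 CPM) lay within the sham range and AVF-CKD 3 stood highest at 90.3 CPM. The log2 fold change was 0.74 ± 0.43 (SE), and it was 0.42 without AVF-CKD 3 and 0.94 without AVF-CKD 5. Cxcl1, which acts on the same receptor, ran from 9.47 to 51.0 CPM in sham (median 22.4 CPM) and from 14.1 to 31.6 CPM in AVF-CKD (median 19.4 CPM). Both its highest values (51.0 and 34.4 CPM, sham 4 and 3) and its lowest (9.47 and 9.83 CPM, sham 6 and 5) were sham libraries. The log2 fold change of Cxcl1 was -0.27 ± 0.37 (SE). It was 0.07 without sham 4, -0.16 without sham 3, and -0.43 to -0.44 without sham 5, sham 6 or AVF-CKD 4. With the title number as a term it was -0.07, and with limma voom -0.12.

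The libraries poorest in Cxcl2 were also poorest in neutrophil markers. Summed neutrophil markers (8 of 8 in the table, none at 0 in all libraries, Ly6g at 3 counts in its lowest library) ran from 121 to 315 CPM in the sham vein (median 217 CPM). In AVF-CKD they ran from 124 to 414 CPM (median 280 CPM). Of the 7 tested markers 6 had a positive and 1 a negative log2 fold change (median 0.46). The edgeR test called none of them, as it called 0% of all tested genes. Sham 1 and AVF-CKD 5 were lowest on this sum, at 121 and 124 CPM, and held 8.34 and 10.9 CPM of Cxcl2. AVF-CKD 3 was highest at 414 CPM and held 90.3 CPM. Macrophage markers (8 of 9 in the table, none at 0) summed to 5427 CPM for sham 1 and to 5644 CPM for AVF-CKD 5, in ranges of 5325 to 10404 CPM in the sham vein and 5644 to 10298 CPM in AVF-CKD. The part of these cells in the Cxcl2 and Cxcl5 values was not tested.

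**Figure D3:**
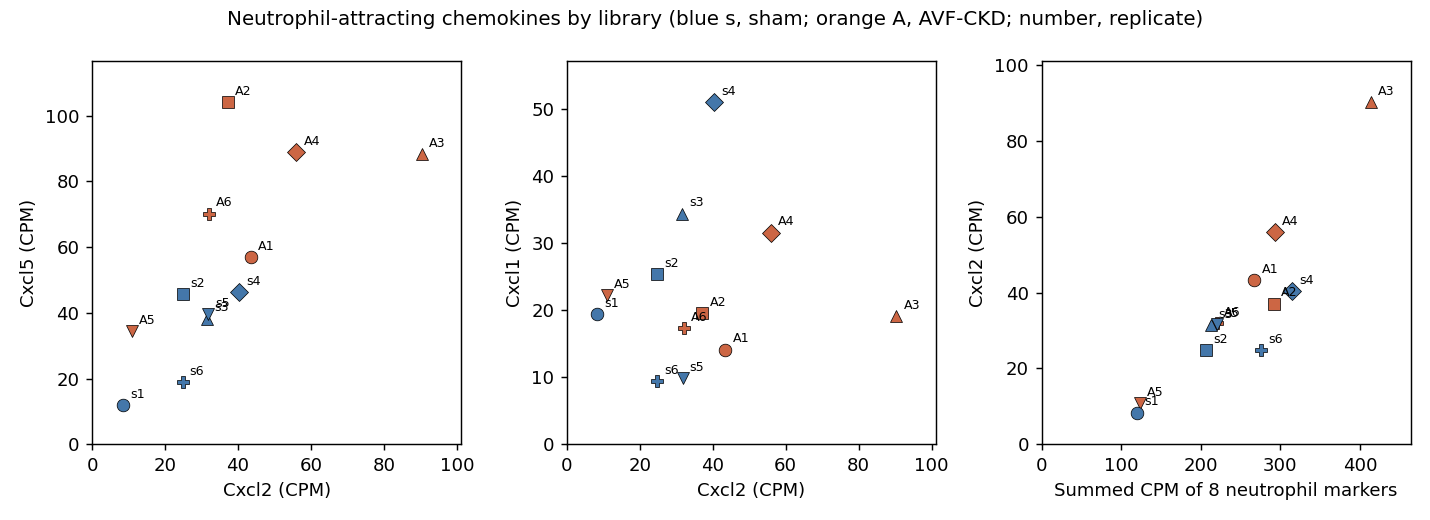
Each point is a library, marked s for sham (blue) or A for AVF-CKD (orange) with its title number. Left, Cxcl5 against Cxcl2; middle, Cxcl1 against Cxcl2; right, Cxcl2 against the summed CPM of 8 neutrophil markers. Sham 1 (8.34 CPM of Cxcl2) and AVF-CKD 5 (10.9 CPM) lie at the lower left of the right panel and AVF-CKD 3 (90.3 CPM) at its upper right, while in the middle panel AVF-CKD 3 holds 19.2 CPM of Cxcl1.

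Cxcl13, Cxcl14 and Cxcl16 had group means within the spread of their libraries. Cxcl13, which draws B cells through Cxcr5 (chromosome 5, 95956928 to 95961067), ran from 1.13 to 11.4 CPM in sham (median 5.43 CPM) and from 1.10 to 15.4 CPM in AVF-CKD (median 4.57 CPM). Its 14.0-fold range over the 12 libraries was the widest of the 9 genes, and the group ranges nearly coincided. The log2 fold change of 0.05 ± 0.64 (SE) was -0.46 without AVF-CKD 1 (15.4 CPM) and 0.33 without sham 4. It was also negative without sham 5 (-0.16), sham 6 (-0.14) or AVF-CKD 2 (-0.09) and with the clock score (-0.25). Summed B-cell markers (6 of 6, Pax5 at 0 in its lowest library) were 12.6 to 26.6 CPM in the sham vein and 15.9 to 28.9 CPM in AVF-CKD. AVF-CKD 1, with the most Cxcl13, had the lowest B-cell sum of its group at 15.9 CPM.

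Cxcl14, a ligand of fibroblasts and epithelia (chromosome 13, 56288647 to 56296551, minus strand), ran from 16.9 to 42.4 CPM in sham (median 34.6 CPM) and from 27.6 to 70.4 CPM in AVF-CKD (median 33.7 CPM). The medians were close, and the higher fistula mean came from AVF-CKD 5 and 4 (70.4 and 62.8 CPM), the libraries with the most fibroblast markers in their group. The part of these cells in the Cxcl14 values was not tested. The log2 fold change of 0.48 ± 0.28 (SE) was 0.29 without AVF-CKD 5, 0.59 without sham 3 and 0.31 ± 0.24 (SE) with the clock score.

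Cxcl16, which exists as a membrane-bound and a shed form and binds Cxcr6 (chromosome 11, 70453983 to 70459984, minus strand), ran from 94.5 to 208 CPM in sham (median 148 CPM) and from 109 to 194 CPM in AVF-CKD (median 166 CPM). The ranges overlapped almost fully, with a log2 fold change of 0.10 ± 0.18 (SE), which was -0.0041 without sham 6, 0.21 without sham 2 and 0.013 with the clock score. On the opposite strand, Zmynd15 covers 18.3% of the exonic bases of Cxcl16, and the TruSeq kit used does not mark strand, so reads of that stretch cannot be assigned to either gene. No other member had exonic bases shared with another GENCODE model. Between Cxcl2 and its paralogue Cxcl3, 7.59% of the 31-base words of Cxcl2 transcripts were shared, so part of these reads could be split between them. No other pair of the ligands compared shared such a word.

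Ackr3, Cxcl1, Cxcl13 and Cxcl14 had their lowest pair of sham values in the same libraries, sham 5 and 6. Ackr3 was at 166 and 137 CPM there, Cxcl1 at 9.83 and 9.47 CPM, Cxcl13 at 1.13 and 1.66 CPM and Cxcl14 at 16.9 and 19.6 CPM. These libraries also held the least Dbp among sham, 7.25 and 6.15 CPM, against 21.4 to 107 CPM in the other sham libraries. Dbp is an output gene of the circadian clock. Sham 4, next in Dbp (21.4 CPM), held the most Cxcl1 (51.0 CPM) and Cxcl13 (11.4 CPM) of the sham libraries. It was next lowest after sham 5 and 6 in Ackr3 (175 CPM) and Cxcl14 (33.9 CPM). Sham 6 also had the highest summed adipocyte (863 CPM) and gland and epithelium markers (43.7 CPM), while sham 5 had the lowest adipocyte sum of sham (154 CPM). The part of the clock or of these cells was not tested. In the fistula group AVF-CKD 6, with 7.65 CPM of Dbp against 77.7 to 99.6 CPM in the others, was lowest in Ackr3 (136 CPM) and in Cxcl12 (254 CPM). It held 17.4 CPM of Cxcl1, 3.77 CPM of Cxcl13 and 32.6 CPM of Cxcl14, within the range of the other fistula libraries. With the clock score as covariate the log2 fold changes were -0.23 ± 0.10 (SE) for Ackr3, -0.40 ± 0.38 (SE) for Cxcl1, 0.72 ± 0.22 (SE) for Cxcl12 and 1.15 ± 0.37 (SE) for Cxcl5.

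Over all 9 genes the log2 fold change was positive for 7 and negative for 2, with a median of 0.29, beside 49.1% positive and a median of -0.0025 over all tested genes. The edgeR quasi-likelihood test called 0 of the 9 at an adjusted p below 0.05, as it called 0% of the tested genes. At an unadjusted p below 0.05 there were 2 members, Cxcl12 and Cxcl5, where 9.34% of tested genes passed. DESeq2 called 1 member, Cxcl12, where it called 0.407% of 19918 genes, and limma voom with sample weights called 0 members and 0 genes (2124 genes at an unadjusted p below 0.05). None of the 9 had groups that did not overlap, which was the case for 0.638% of tested genes. Since this contrast was known when the genes were chosen, nothing is read from these counts.

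How the 9 genes varied together within the groups does not use that contrast and was tested. For each library the deviation of log2 CPM (prior count 2) from its group mean was taken, and the 36 pairs of genes were correlated over the 12 libraries with 100000 permutations within groups (two-sided). Libraries share dissection, cell makeup and depth, which such correlations carry. No pair passed a Benjamini-Hochberg adjusted p of 0.05. The highest correlation was that of Cxcl2 and Cxcl5, with Pearson's r = 0.80 (permutation p = 0.00446, adjusted p = 0.141) and Spearman's rho = 0.57 (permutation p = 0.0467, adjusted p = 0.466). It rested in part on AVF-CKD 5 and sham 1, without which r was 0.32. Cxcl1 and Cxcl14 followed, with r = 0.73 (permutation p = 0.00786, adjusted p = 0.141), rho = 0.74 (permutation p = 0.0103, adjusted p = 0.185) and r = 0.80 without sham 4 and 6. Cxcr4 and Cxcl16 had r = 0.70 (permutation p = 0.0223, adjusted p = 0.268), rho = 0.80 (permutation p = 0.00461, adjusted p = 0.166) and r = 0.52 without AVF-CKD 5 and sham 4.

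The neighbours Cxcl1 and Cxcl2, whose upstream windows share the GGAATTTCC run shown above, had r = 0.13 (permutation p = 0.702, adjusted p = 0.882) and rho = 0.29 (permutation p = 0.350, adjusted p = 0.741). Without sham 4 and 6 this r was -0.0077. Cxcl12 had r = -0.18 with Cxcr4 (permutation p = 0.636, adjusted p = 0.882; rho = -0.18, permutation p = 0.584, adjusted p = 0.808). With Ackr3 it had r = 0.0047 (permutation p = 0.988, adjusted p = 0.988; rho = -0.13, permutation p = 0.685, adjusted p = 0.859). Without AVF-CKD 4 and 6 these were -0.22 and -0.16. Covariation of the ligand with its receptors was not detectable over 12 libraries. Leaving out sham 4 brought 3 pairs below an adjusted p of 0.05 (Cxcr4 with Cxcl2 and with Cxcl5, and Cxcl1 with Cxcl14), and leaving out AVF-CKD 5 brought 1 there (Ackr3 with Cxcl16).

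**Figure D4:**
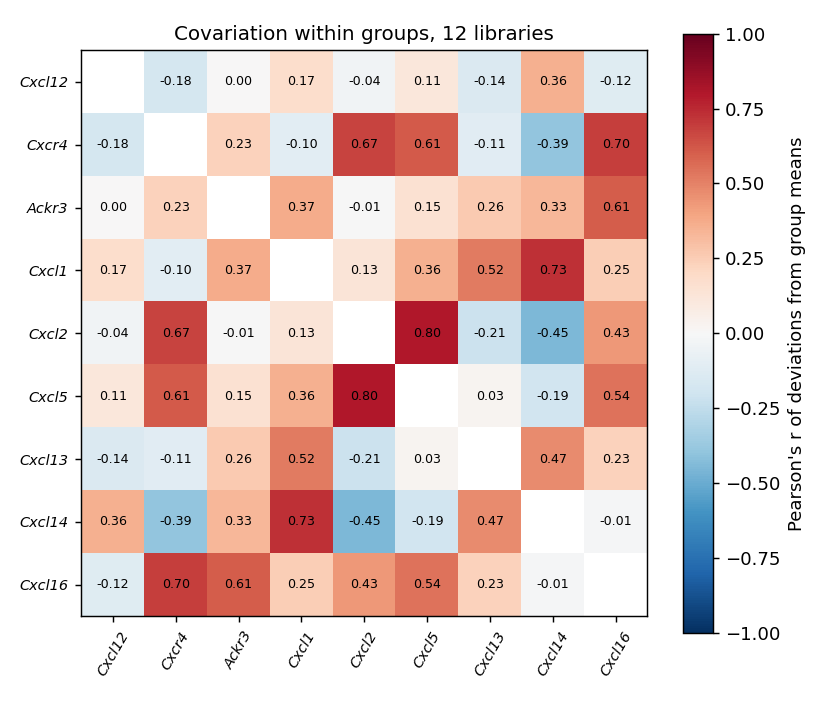
Pearson's r between the 9 genes, from deviations of log2 CPM from group means in 12 libraries, red for positive and blue for negative. The highest value is that of Cxcl2 and Cxcl5 (0.80), while Cxcl12 stays between -0.18 and 0.36 with every other gene over both groups together. Within single groups its r differed most with Cxcl1 (-0.22 in sham, 0.84 in AVF-CKD) and with Cxcl14 (-0.40 and 0.78), which was not tested.

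By the same deviations, the genes most like each member were looked up among 11435 named genes with a mean of at least 5 CPM. Being the highest of so many, these values describe the 12 libraries and were not tested. For Cxcl12 they were Aldh1a2 (r = 0.86), Mfap1b (0.82) and Atxn3 (0.80). Cxcr4 was most like Thoc6 (r = 0.95), Eif4a-ps4 (0.94) and Steap1 (0.93), and Ackr3 most like Leprot (0.91), Rasgef1b (0.91) and Gabre (0.90). For Cxcl2 the list was Rnf149 (r = 0.97), Il1f9 (0.96), which encodes an interleukin 1 family cytokine, and Asprv1 (0.96). For Cxcl5 it was Zbtb18 (r = 0.95), Riok3 (0.93) and Serpinb1a (0.92), an inhibitor of neutrophil proteases. Cxcl1 was most like Zfp758 (r = 0.88), Prg4 (0.88) and Tmem87a (0.87). Cxcl13 was most like Man2b1 (r = 0.87), Scamp5 (0.87) and Sult5a1 (0.86), and Cxcl14 most like Slc4a4 (r = 0.92), Ust (0.89) and Lgi4 (0.88). Cxcl16 was most like Traf1 (r = 0.97), Gpank1 (0.96) and Zmynd15 (0.95), the last being the gene that overlaps it.

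The edgeR test called none of the other genes of the system, as it called 0% of the 18965 tested genes, so nothing is read from that. DESeq2 called Mmp9 among them, as given below. Of 6 tested other CXC ligands 2 had positive and 4 negative log2 fold changes (median -0.49). Pf4, a chemokine of platelets, had the highest CPM and averaged 149 CPM ± 36.8 (SD, n = 6) in the sham vein and 165 CPM ± 46.2 in the fistula vein. Cxcl3, which acts on Cxcr2 like its neighbours, stood at 16.9 CPM ± 10.2 and 34.3 CPM ± 22.6 (log2 difference 1.03 ± 0.48 SE, edgeR adjusted p = 0.535). Its log2 difference was 0.60 without AVF-CKD 3 and 1.27 without sham 4. Of 8 tested receptors 3 were positive and 5 negative (median -0.16). Cxcr2, the neutrophil receptor of Cxcl1, Cxcl2 and Cxcl5, stood at 9.63 CPM ± 3.68 and 13.3 CPM ± 5.52 (log2 difference 0.47 ± 0.32 SE, edgeR adjusted p = 0.686), which was 0.26 without AVF-CKD 3, 0.31 without sham 1 and 0.75 with the clock score. Ackr1, the venous endothelial carrier of chemokines, stood at 37.2 CPM ± 15.1 and 23.1 CPM ± 8.23 (log2 difference -0.68 ± 0.28 SE, edgeR adjusted p = 0.501), and 25.7% of its exonic bases overlap Cadm3.

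Signalling and processing genes of the Cxcl12 axis split evenly, 12 positive and 12 negative of 24 tested (median 0.01). Mmp9, a protease that can cleave Cxcl12, averaged 16.7 CPM ± 4.86 (SD, n = 6) in the sham vein and 53.3 CPM ± 27.3 in the fistula vein (log2 difference 1.67 ± 0.35 SE, edgeR adjusted p = 0.368), and DESeq2 gave an adjusted p of 0.00152. Mmp9 is named for the largest log2 fold change of a list chosen with earlier results known, so nothing is read from these p-values. Gpc3, a heparan sulphate proteoglycan, stood at 105 CPM ± 9.14 and 77.2 CPM ± 26.6 (log2 difference -0.45 ± 0.17 SE, edgeR adjusted p = 0.487). Cd74, the most abundant gene of this list, stood at 2306 CPM ± 1057 and 2189 CPM ± 540.4. Gnai2, a G protein subunit used by chemokine receptors and named after its values were seen, was the gene of this list whose groups did not overlap, at 468 CPM ± 23.7 and 537 CPM ± 28.3 (log2 difference 0.20 ± 0.07 SE, edgeR adjusted p = 0.443). For that measure the share over all tested genes is the 0.638% given above.

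Inducers and brakes of Cxcl1 and Cxcl2 were positive in 15 of 20 cases (median 0.14). Il1a, an inflammatory cytokine, stood at 2.25 CPM ± 1.17 and 5.18 CPM ± 3.44 (log2 difference 1.21 ± 0.46 SE, edgeR adjusted p = 0.487). Zfp36, whose protein speeds the decay of inflammatory mRNAs, stood at 103 CPM ± 22.4 and 80.4 CPM ± 17.4 (log2 difference -0.36 ± 0.17 SE, edgeR adjusted p = 0.539), and Tnfrsf1a, a TNF receptor, at 192 CPM ± 16.9 and 190.1 CPM ± 15.03. Of the 3 tested partners of Cxcl16, its sheddase Adam10 stood at 151 CPM ± 14.2 and 168 CPM ± 22.5 (log2 difference 0.15 ± 0.10 SE, edgeR adjusted p = 0.656), and its receptor Cxcr6 at 6.44 CPM ± 3.85 and 5.69 CPM ± 1.81. The log2 difference of Adam10 was 0.097 without AVF-CKD 5 and 0.21 without AVF-CKD 2. Genes of lymphoid organisation around Cxcl13 were positive in 4 and negative in 6 of 10 cases (median -0.05). Among them Ltbr stood at 84.3 CPM ± 6.63 and 82.9 CPM ± 6.87, Ccl19 at 13.7 CPM ± 6.22 and 10.5 CPM ± 2.05, and Tnfsf11 at 1.71 CPM ± 0.988 and 2.84 CPM ± 1.54 (log2 difference 0.74 ± 0.42 SE, edgeR adjusted p = 0.608). The log2 difference of Tnfsf11 was 0.49 without AVF-CKD 3 and 1.08 without sham 5.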

How the data were processed

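Vein RNA of 12 samples was made into TruSeq libraries, as the labels state. The deposited table gave a whole-number count and an RPKM value per gene and library. The submitters' processing notes name GRCm38, TopHat2 2.1.0, featureCounts and edgeR, without their roles. The deposited RPKM values divide counts by the table's gene length and by a total 1.15 to 1.19 times the summed counts and were used to compare levels between genes. The annotation release and strand setting were not given in the sources used here.

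After filterByExpr and TMM scaling, edgeR 4.0.16 (R 4.3.3) fitted the counts on the group alone by its quasi-likelihood method, and p-values were adjusted over all genes by Benjamini-Hochberg. Standard errors are the log2 fold change divided by the root of its F. The fit was tested on simulated data with known changes. Alternatives used DESeq2 1.42.0, limma 3.58.1, other scaling and filters, the title number, a clock score and leaving out each library. All 66 pairs of libraries differed beyond sampling noise (lowest chi-square 44.4 times its degrees of freedom). Permutation tests used numpy 2.4.6, with ranks and the Benjamini-Hochberg adjustment from scipy 1.17.1. Overlaps came from GENCODE M21 and promoters from RefSeq (7 of 9 members matched). The members and lists were chosen with earlier results of these data known. Named pathway genes are the most abundant of each list and those with the smallest and largest log2 fold change, and likeness names 3 genes per member. Adgre1 was not matched by name.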

Additional observations from a re-analysis of the deposited data

How the results depend on the processing

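Of 198 recomputed log2 fold changes of the 9 genes, 7 had the opposite sign (Cxcl1, Cxcl13 and Cxcl16, given above). All 198 stayed within the pooled SD between libraries of their reported value. Leaving out a single library of 6 can hardly shift a group mean by that SD, so nothing is read from this. For Cxcl13 the SD was 1.35, and its log2 fold change went from 0.05 to -0.46 within it. Over the settings other than left-out libraries, Cxcl12 ranged from 0.72 to 0.77 and Cxcl5 from 1.14 to 1.24, and over left-out libraries from 0.63 to 0.88 and from 0.97 to 1.29. DESeq2 called 81 genes, 1 of them a member (Cxcl12) and 1 a pathway gene (Mmp9), and leaving out each library called 0 to 1 genes, the 1 without AVF-CKD 3. Genes without overlap numbered 149 to 269 with a library left out, where fewer samples make overlap rarer, 119 with RLE scaling and 104 without scaling, and members without overlap 0 to 1. The settings on overlap with libraries left out or without scaling were chosen after the data were seen. Pairs called among the 36 numbered 0 to 3 with a library left out. Signs reversed for Cd74 (0.0286 with the replicate block, 0.0358 with limma voom), Tnfrsf1a (0.0037 with limma voom) and Cxcr6 (0.0184 with the replicate block). With libraries left out, they ranged from -0.23 to 0.13 for Cd74, -0.0496 to 0.0148 for Tnfrsf1a, -0.39 to 0.10 for Cxcr6 and -0.0544 to 0.0171 for Ltbr, and the cause was not tested. Same-numbered libraries correlated by -0.11 to 0.28 in their deviations, 1 of 6 best with its own number, so the titles share only a number. With the replicate block the fit called 0 genes and no pair of members, the latter over 6 differences.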

Other observations

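The interferon-induced ligands of Cxcr3, which draw activated T cells, had lower means in the fistula vein, in the direction opposite to Cxcl2 and Cxcl5. Cxcl10 averaged 55.5 CPM ± 40.5 (SD, n = 6) in the sham vein and 23.5 CPM ± 10.4 in the fistula vein (log2 difference -1.24 ± 0.48 SE, edgeR adjusted p = 0.487). Its log2 difference was -0.86 without sham 2 and -1.42 without sham 6. Cxcl9 and Cxcl11, which like Cxcr3 were named after their values were seen, stood at 104 CPM ± 75.0 and 73.6 CPM ± 47.1, and at 1.22 CPM ± 0.561 and 0.730 CPM ± 0.277. Their log2 fold changes were -0.50 ± 0.56 SE (edgeR adjusted p = 0.820) and -0.73 ± 0.32 SE (edgeR adjusted p = 0.510). Exonic bases of Cxcl11 overlap the model Gm2673 over 41.7%, so its counts are uncertain, and GENCODE types Cxcl11 as a polymorphic pseudogene. Their receptor Cxcr3 stood at 5.85 CPM ± 2.88 and 6.08 CPM ± 2.39. Summed T and NK cell markers (7 of 7, none at 0 in all libraries) were 19.2 to 69.5 CPM in sham (median 45.3 CPM) and 31.8 to 59.7 CPM in AVF-CKD (median 38.8 CPM). Of these 7 markers 1 had a positive and 6 a negative log2 fold change (median -0.23). The part of these cells was not tested.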
